A study of Mus musculus with 6 samples.

Results

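The ZBTB family was followed in regulatory T cells (Treg) of liver and spleen. Its members were taken by gene symbol alone: every row of the deposited table with a single symbol made of Zbtb and a number was kept, 1 row per symbol, without pseudogenes and opposite-strand symbols. This gave 38 of the 38854 genes measured. Zbtb8os was left out by that rule, and Zbtb11 and Zbtb26 were not analysed here. There were 6 arrays, 3 of liver Treg (numbered 2, 3 and 7 in the labels) and 3 of spleen Treg (numbered 4, 5 and 6). All came from Foxp3-GFP mice, in which a green fluorescent protein marks cells that express Foxp3. Both groups had received the IL-2/IL-2Ab complex, interleukin-2 bound to an antibody, for 3 days followed by 3 days without treatment. This complex expands Treg in the animal, so no array shows untreated Treg. The labels give no age, sex, batch or pairing of arrays, and do not state how many animals stand behind an array. The p-values therefore measure the spread between arrays, which may be technical.

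ZBTB proteins are transcription factors with a BTB domain at the front of the protein, through which they pair with each other and recruit co-repressors, and zinc fingers at the back, which bind DNA. Most of them repress their targets by bringing in nuclear co-repressor complexes and histone deacetylases. In T cells the family is known for lineage decisions: Zbtb7b (ThPOK) commits thymocytes to the CD4 lineage, from which most Treg arise, and Zbtb16 (PLZF) drives the program of natural killer T cells. Zbtb10 is a less studied member. In human cells it is known as a repressor of the Sp transcription factors and as a protein that binds telomeric repeat variants.

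Signals are given on the log2 scale, on which a difference of 1 is a factor of 2. The median over all genes lay between 5.99 and 6.25 per array, highest on spleen array 5. The rows that measure background averaged 4.09 to 4.55, again highest on spleen array 5. Single background rows ran widely, from 1.66 on spleen array 6 to 8.45 on spleen array 5. The signals of most Zbtb genes lay inside that range. None of the 7 Treg markers passed the test. Foxp3, the defining factor of Treg, had a mean of 9.47 (SD 0.14) on the liver arrays and 9.49 (SD 0.09) on the spleen arrays, a difference of -0.02 with a 95% confidence interval from -0.28 to 0.23. The sign of this difference turned in other settings. The samples are bulk RNA, in which fewer cells of a type and less RNA per cell cannot be told apart.

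Zbtb10 was lower in liver Treg than in spleen Treg, and it was the 1 member of the 38 that passed the test. On the liver arrays 2, 3 and 7 it measured 7.79, 7.82 and 7.73. On the spleen arrays 4, 5 and 6 it measured 9.13, 8.95 and 8.53. The groups did not overlap, the liver arrays lay close together, and the spleen arrays were spread, with array 6 nearest to liver. The means were 7.78 ± 0.05 in liver and 8.87 ± 0.31 in spleen (SD, n = 3 each). The log2 difference was -1.09 (SE 0.15, 95% confidence interval -1.41 to -0.77), or 2.13-fold more in spleen, with a limma adjusted p of 0.0473 over all genes. In the same comparison 0.0206% of all genes passed in either direction and 0.0103% were lower in liver. Zbtb10 was singled out because earlier work on these arrays had called it, so its p is no independent evidence. An exact permutation test of the single gene gave p = 0.1 (two-sided), the smallest that 3 arrays against 3 allow. The transcript cluster behind these values is TC0300000054.mm.1.

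The Zbtb10 difference kept its direction and near size in other settings, and its call did not hold in all of them. It ran from -1.26 without spleen array 6 to -0.96 without spleen array 4 over 15 other settings. Of these, 6 (the filters, averaged rows, other spread models and the identical value table) leave the estimate as it is by construction, and it passed in all 6. Of the 9 that change the estimate it passed in 3, without liver array 2, spleen array 4 or spleen array 6. It did not pass after array medians were subtracted (adjusted p = 0.386), after quantile normalization (0.139) or cyclic loess (0.178), or without liver array 3 (0.0789), liver array 7 (0.0791) or spleen array 5 (0.522). In each of the 15 settings Zbtb10 had the largest absolute difference of the family.

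**Figure D1:**
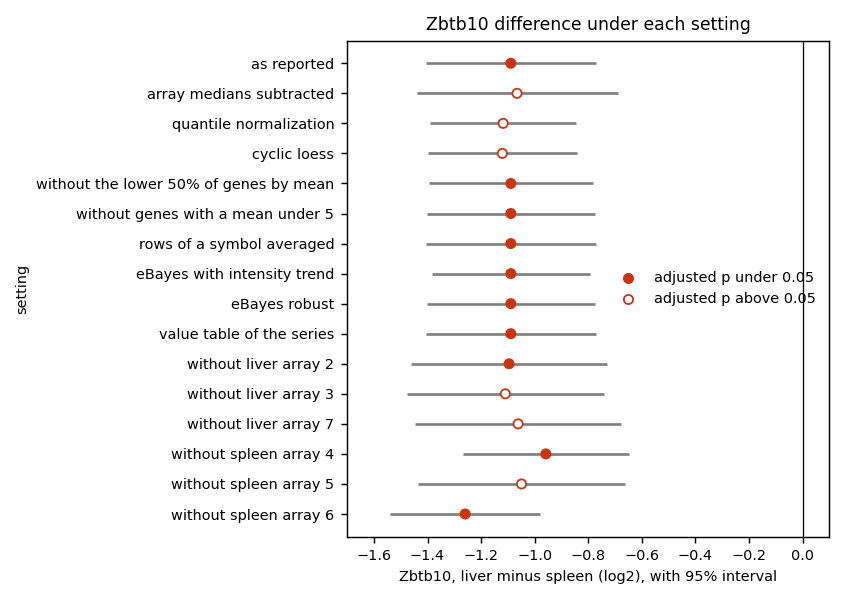
Zbtb10 difference between liver and spleen Treg under the reported setting and 15 others. The horizontal axis is the log2 difference, liver minus spleen, points are estimates from limma, lines are 95% confidence intervals, and filled points have an adjusted p under 0.05. The points lie between -1.26 and -0.96, and 6 of the 15 other settings have an open point.

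Among its family Zbtb10 stood apart by its tissue difference, for which it had been singled out. The contrasts below describe that same difference and are no separate evidence. Its standard deviation over the 6 arrays, which includes the tissue difference, ranked 1 of 38. Within the tissues its SD was 0.05 in liver and 0.31 in spleen, beside family medians of 0.08 and 0.14. Its absolute difference was 2.90 times that of the next member, Zbtb21. Set against the median of the other 37 members on the same array, Zbtb10 was higher by 0.696, 0.715 and 0.724 on liver arrays 2, 3 and 7. On spleen arrays 4, 5 and 6 it was higher by 2.11, 1.75 and 1.48. This value does not change when a whole array is shifted up or down, and its difference between the tissue means was -1.07. By signal Zbtb10 ranked 8, 8 and 7 among the 38 on the liver arrays and 1, 1 and 4 on the spleen arrays. Probe sets respond differently, so such an order is one of signals and not of transcript amounts.

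**Figure D2:**
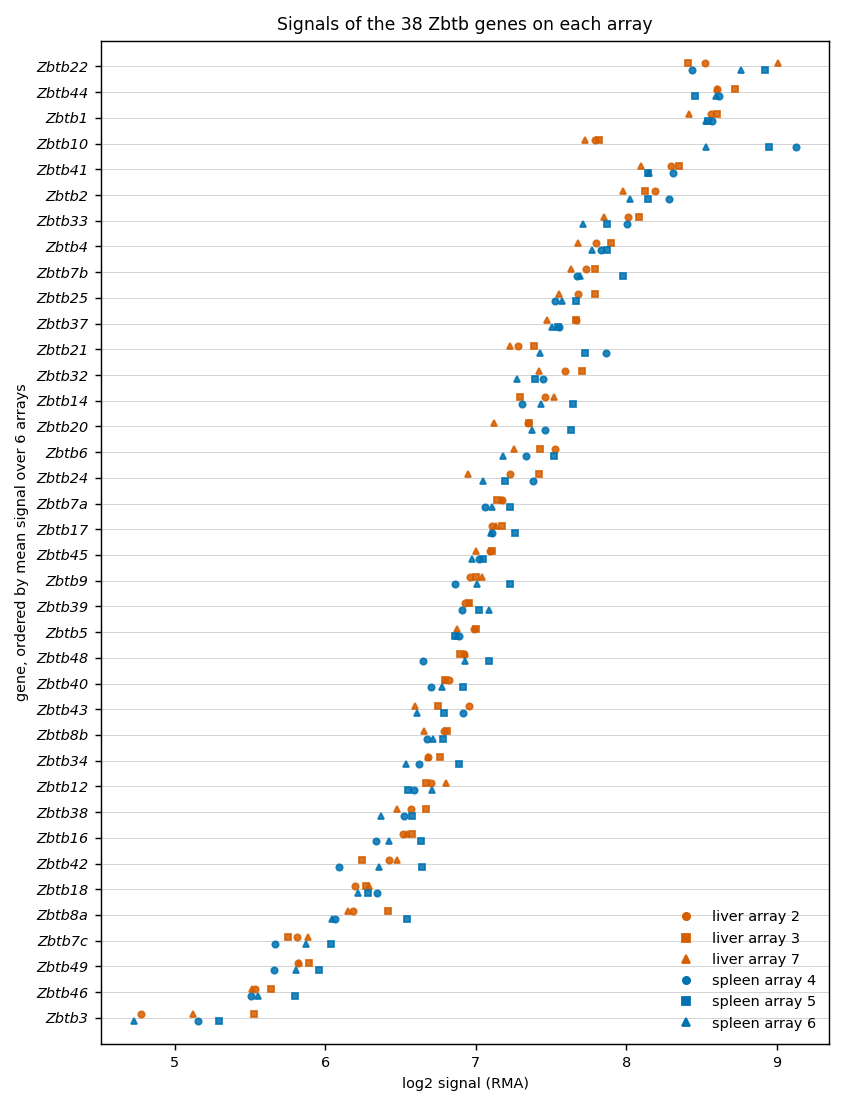
Signals of the 38 Zbtb genes on the 6 arrays. The horizontal axis is the log2 signal, each row is 1 gene, orange marks are liver arrays and blue marks are spleen arrays, with 1 shape per array. Zbtb10 is the row in which orange marks (7.73 to 7.82) and blue marks (8.53 to 9.13) are furthest apart. The order of rows is one of signals, not of transcript amounts.

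The other 37 members showed small differences. In 32 of them the absolute log2 difference was under 0.1, and in 36 it was under 0.25. Over all members 36 of 38 were under 0.25, and so were 94.0% of all genes, so small differences were the rule over the whole array. None of the 37 passed the test, in the reported setting or in any of the 15 others. Only 1 of them, Zbtb21, had an unadjusted p under 0.05, where 3.77% of all genes did. The 95% confidence intervals of all 37 lay within -1 to 1, so a 2-fold difference in signal lies outside each of them. Those of 36 lay within -0.5 to 0.5. The dimmer members lay within the range of single background rows, and the part of background in these intervals was not tested. The lowest bound was -0.66 (Zbtb21) and the highest 0.49 (Zbtb3). The family median was 0.02, with 21 members positive and 17 negative, beside -0.02 over all genes.

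**Figure D3:**
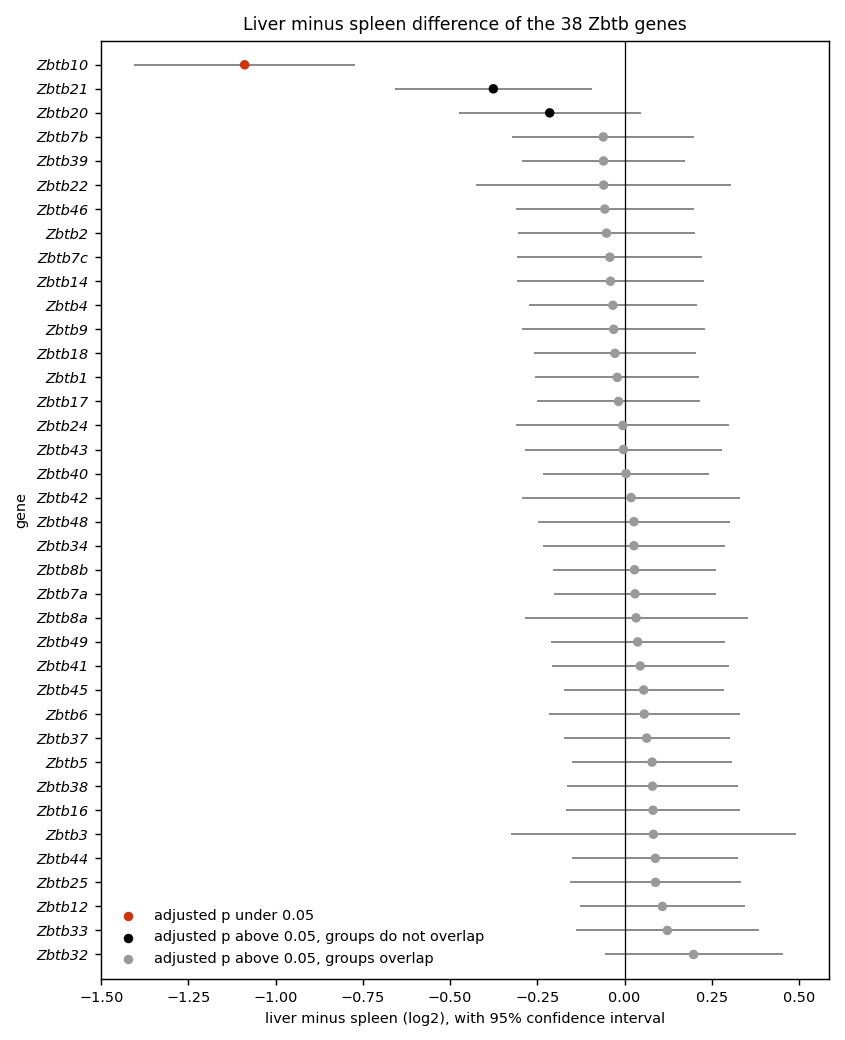
Liver minus spleen differences of the 38 Zbtb genes on the log2 scale. Points are limma estimates from 3 arrays per tissue and lines are 95% confidence intervals; red marks an adjusted p under 0.05, and black marks groups that do not overlap without passing the test, and grey the rest. Zbtb10 lies at -1.09, Zbtb21 at -0.38 and Zbtb20 at -0.21, and Zbtb32 is the highest at 0.20.

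In 3 of the 38 members (7.89%) the liver and spleen arrays did not overlap, and each of the 3 was lower in liver. Over all genes the groups did not overlap in 6.19%, with 3.09% lower in liver and 3.11% higher. The count of members is therefore near the background. The 3 were Zbtb10, Zbtb21 and Zbtb20.

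Zbtb21 encodes a repressor that in human cells pairs with Zbtb14. Its liver arrays 2, 3 and 7 were at 7.28, 7.38 and 7.23 and its spleen arrays 4, 5 and 6 at 7.87, 7.72 and 7.43. The highest liver array lay just under the lowest spleen array. The spleen arrays stood in the same order as for Zbtb10, an order that other members such as Zbtb2, Zbtb32 and Zbtb33 also had. The difference was -0.38 (SE 0.13, 95% confidence interval -0.66 to -0.095, adjusted p = 0.82 by limma), or 1.30-fold more in spleen. It ran from -0.50 to -0.28 over the other settings. Its partner Zbtb14 differed by -0.04 (95% confidence interval -0.31 to 0.23).

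The RefSeq window around the start of Zbtb21 is shown because this gene had the next largest difference after Zbtb10. It spans chr16:97962615-97962872 (GRCm38.p6, minus strand) and covers the 250 bases before the annotated start and 8 bases from it on. Capitals mark matches to the GC box GGGCGG, to CCAAT and to the cyclic AMP response element TGACGTCA, searched on both strands; no matches overlap.
Zbtb21: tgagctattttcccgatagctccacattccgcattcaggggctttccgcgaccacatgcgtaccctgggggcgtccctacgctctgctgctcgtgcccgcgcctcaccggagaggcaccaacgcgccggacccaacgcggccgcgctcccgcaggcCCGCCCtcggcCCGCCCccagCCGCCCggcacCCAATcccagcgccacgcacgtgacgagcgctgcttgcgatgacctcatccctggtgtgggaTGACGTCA
The window held 3 GC boxes, on the minus strand of the sequence as printed, 1 CCAAT and 1 cyclic AMP response element, the palindrome that CREB family factors bind. Windows with 250 bases before the start and 50 after it were found for 33 of the 38 members, all but Zbtb10, Zbtb16, Zbtb40, Zbtb48 and Zbtb7c. Of these 33, 24 (72.7%) held a GC box, against 38.2% of the 27025 genes with a window. The cyclic AMP response element was in the window of 1 of the 33, Zbtb21, and of 2.03% of all genes. CCAAT was found in 36.4% of the members and 41.1% of all genes, the TATA box TATAAA in 6.06% and 15.7%, and TCCTGCNA, the unmethylated site of Kaiso (Zbtb33), in 6.06% and 5.71%. The members' windows were also richer in G and C, with a median of 62.7% against 52.8%. A match is a description of the letters and not evidence of binding.

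Zbtb20 represses alpha-fetoprotein in the liver and supports long-lived plasma cells. It measured 7.35, 7.35 and 7.12 on liver arrays 2, 3 and 7 and 7.46, 7.64 and 7.37 on spleen arrays 4, 5 and 6. The lowest spleen array lay just above the 2 higher liver arrays, so the groups did not overlap but came close to it. The difference was -0.21 (SE 0.12, 95% confidence interval -0.48 to 0.05, adjusted p = 1 by limma), and the interval includes 0. It was -0.14 without liver array 7 and -0.14 without spleen array 5.

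**Figure D4:**
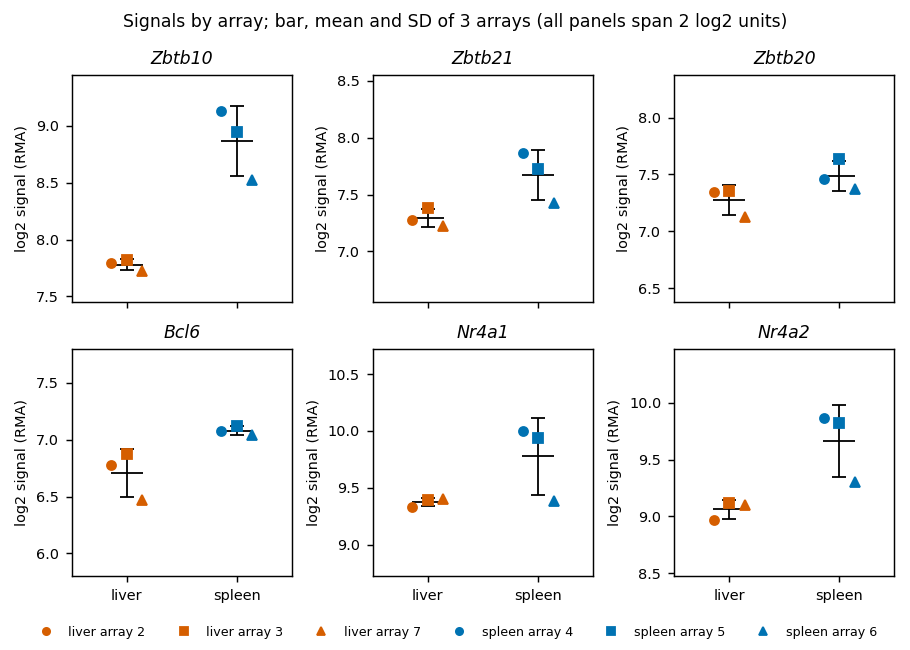
Signals of Zbtb10, Zbtb21, Zbtb20, Bcl6, Nr4a1 and Nr4a2 on the 6 arrays, log2 scale. Each panel is 1 gene, marks are single arrays (orange for liver, blue for spleen, 1 shape per array), horizontal lines are means and whiskers are SDs of the 3 arrays of a tissue; the panels start at different signals and each spans 2 log2 units. In Zbtb10, Zbtb21, Nr4a1 and Nr4a2 spleen array 4 is the highest and spleen array 6 the lowest of the spleen arrays.

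Of the 9 members known for T cell and lymphoid lineages none passed the test, and their median difference was -0.02, as over all genes. In 1 of the 9, Zbtb20 at -0.21, the groups did not overlap, beside 6.19% of all genes. The others lay between -0.06 and 0.20. Zbtb7b, the CD4 commitment factor, measured 7.73, 7.80 and 7.63 on liver arrays 2, 3 and 7 and 7.67, 7.98 and 7.70 on spleen arrays 4, 5 and 6. The groups overlapped, and the difference was -0.06 (95% confidence interval -0.32 to 0.20). Zbtb7a (LRF), which works beside Zbtb7b to maintain CD4 T cells, differed by 0.03 (95% confidence interval -0.20 to 0.26). Zbtb16, the natural killer T cell factor, measured 6.55 ± 0.03 in liver and 6.46 ± 0.15 in spleen, a difference of 0.08. Zbtb1, needed for lymphoid development, had the third highest signal of the family and differed by -0.02. Zbtb17 (Miz1), a partner of Myc, also differed by -0.02. Zbtb25, which represses NFAT targets in human T cells, differed by 0.09. The signs of Zbtb1, Zbtb7a, Zbtb7b and Zbtb17 turned in at least 1 other setting.

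Zbtb32 (ROG), a repressor of GATA3 that T cells induce on activation, had the largest positive difference of the family. It measured 7.59, 7.70 and 7.42 on liver arrays 2, 3 and 7 and 7.45, 7.39 and 7.27 on spleen arrays 4, 5 and 6. Liver array 7 lay below spleen array 4, so the groups overlapped. The difference was 0.20 (SE 0.12, 95% confidence interval -0.06 to 0.45, adjusted p = 1 by limma), and 0.13 without liver array 3. Zbtb46, a marker of conventional dendritic cells, had the next to lowest signal of the family, 5.56 ± 0.07 in liver and 5.62 ± 0.16 in spleen. Its difference was -0.06 (95% confidence interval -0.31 to 0.20), with a sign that turned in other settings.

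The 4 members tied to DNA methylation had a median difference of 0.04, with none past the test. Zbtb33 (Kaiso), Zbtb4 and Zbtb38 bind methylated DNA. They differed by 0.12, -0.03 and 0.08. Zbtb24, which is mutated in a human immunodeficiency with lost centromeric methylation, differed by -0.01 with one of the wider spreads of the family (SD 0.24 in liver and 0.17 in spleen). The signs of Zbtb4 and Zbtb24 turned in other settings.

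The telomere pair went apart. Zbtb48 (TZAP), which in human cells binds telomeric repeats and trims long telomeres, measured 6.91 ± 0.02 in liver and 6.89 ± 0.22 in spleen, while Zbtb10 was lower in liver. The Zbtb48 difference was 0.03 (95% confidence interval -0.25 to 0.30), and its sign turned in other settings. The difference between the changes of these 2 genes was not tested. Of 8 other telomere binding genes, among them the shelterin subunits, none passed the test, and their median difference was 0.08. The largest was Pot1a, which binds the single-stranded telomere end, at 0.17.

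Members that act on the cell cycle inhibitor p21 in human cells were 3. Zbtb2 and Zbtb5, which repress it, differed by -0.05 and 0.08. Zbtb49, which activates it, differed by 0.04 at one of the 3 lowest signals of the family. None passed the test. The gene for p21 itself, Cdkn1a, differed by 0.07 (95% confidence interval -0.28 to 0.42). It ranged from 7.24 to 7.90 over the spleen arrays, more widely than the 7.66 to 7.81 of the liver arrays. The signs of Zbtb2, Zbtb49 and Cdkn1a turned in other settings.

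Of 8 members tied to development and the nervous system none passed the test, and their median difference was -0.01. Zbtb21 at -0.38 was the largest and the others lay between -0.04 and 0.11. Zbtb18, a repressor of neuronal genes, differed by -0.03, and Zbtb42, needed in muscle, by 0.02. Zbtb45, which acts in glial differentiation, differed by 0.05, and Zbtb14, a repressor of Myc, by -0.04. Zbtb12 differed by 0.11, Zbtb7c by -0.04 and Zbtb40 by 0.0041. The signs of Zbtb7c, Zbtb14, Zbtb18, Zbtb40 and Zbtb42 turned in other settings.

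The remaining members are named for their signals or their spread. Zbtb22, a gene of the major histocompatibility region, and Zbtb44 had the 2 highest mean signals. Zbtb22 split the arrays in a way that crossed the tissues. Liver arrays 2 and 3 and spleen array 4 were at 8.53, 8.41 and 8.44, and liver array 7 and spleen arrays 5 and 6 were at 9.01, 8.92 and 8.76. Its difference was -0.06 and turned sign in other settings. Zbtb44 measured 8.64 ± 0.07 in liver and 8.56 ± 0.09 in spleen. Zbtb3 had the lowest signal, between 4.73 and 5.52, and the largest liver spread (SD 0.37). Its sign turned in other settings. Its interval from -0.33 to 0.49 is the widest among the 38.

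By signal the family sat in the upper part of the array. The mean of the 6 arrays ran from 5.10 to 8.68 over the members, with a median of 7.09 against 6.10 for all genes, and 34 of 38 members lay above the median gene. The spread between arrays was small: the median SD over the members was 0.08 in liver and 0.14 in spleen. Which array was the highest for a member was uneven. Spleen array 5 was the highest for 15 of the 38, 10 of them among the 19 members of lower signal, and liver array 3 for 13. Liver array 7 was the lowest for 12 and spleen array 4 for 11. Spleen array 5 also had the highest background rows, and the part of background in these values was not tested.

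Some members lie side by side in the genome. In the RefSeq annotation Zbtb25 and Zbtb1 on chromosome 12 are neighbours whose gene bodies overlap, and their signals cannot be taken as fully separate. Zbtb34 and Zbtb43 on chromosome 2 and Zbtb8a and Zbtb8b on chromosome 4 are neighbours too. The members of each pair differed by 0.09 and -0.02, by 0.03 and -0.0032, and by 0.03 and 0.03. The sign of each of these except Zbtb25 turned in other settings.

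BTB zinc finger genes that carry other names were compared next. None of the 8 passed the test, and their median difference was -0.04. Bcl6, the repressor that directs follicular helper and follicular regulatory T cells, was the largest. It measured 6.78, 6.87 and 6.47 on liver arrays 2, 3 and 7 and 7.08, 7.13 and 7.04 on spleen arrays 4, 5 and 6. All spleen arrays lay above all liver arrays, with liver array 7 the lowest. The difference was -0.37 (SE 0.12, 95% confidence interval -0.64 to -0.10, adjusted p = 0.78 by limma), close to that of Zbtb21.

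The partners that BTB domains recruit gave no call. Among 18 co-repressor genes and Cul3 ligase genes none passed the test, with a median difference of 0.01. Hdac4, a histone deacetylase that binds BTB repressors such as Bcl6, was the largest at -0.21 (95% confidence interval -0.46 to 0.05). Its liver arrays at 7.72, 7.76 and 7.66 lay below its spleen arrays at 7.85, 8.09 and 7.81. The value depends on the row and on 1 array: it was -0.11 when the rows named Hdac4 were averaged and -0.12 without spleen array 5.

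The genes linked to Zbtb10 in human cancer cells were compared because they hold both sides of a known relation. There ZBTB10 represses Sp1, Sp3 and Sp4, zinc finger activators that bind GC boxes, and miR-27a represses ZBTB10. The mature mouse miRNA (RefSeq, GRCm38.p6, chr8:84208727-84208747, plus strand) is shown because its precursor was on the array. Capitals mark the seed, bases 2 to 8.
mmu-miR-27a-3p: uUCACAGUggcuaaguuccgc
The list also held Sp2, and Mir23a and Mir24-2 of the miR-27a cluster, which are not part of the relation described. Of its 7 genes none passed the test, and their median difference was -0.03. Sp1 differed by 0.04 (95% confidence interval -0.21 to 0.29), Sp3 by -0.0041 (-0.24 to 0.23) and Sp4 by -0.03 (-0.29 to 0.23). Mir27a, the row named for the precursor, measured 6.07 ± 0.04 in liver and 6.02 ± 0.21 in spleen, near the median gene; it is named for its link to ZBTB10 and not for its difference. These 4 genes turned sign in other settings, and a signal difference the size of that in Zbtb10 lies outside their intervals. The Mir27a row lay within the range of single background rows, so its interval bounds a signal and not the amount of precursor. The mature miRNA was not measured.

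Genes linked to the lineage factors, 10 in all, gave a median difference of -0.02 with none past the test. Cd8a, which Zbtb7b keeps silent in CD4 T cells, was the largest at 0.97 (95% confidence interval 0.59 to 1.35, adjusted p = 0.141 by limma). It measured 7.71, 7.93 and 7.74 on liver arrays 2, 3 and 7 and 7.25, 6.78 and 6.44 on spleen arrays 4, 5 and 6, without overlap. Without spleen array 4 it passed, at 1.18 (adjusted p = 0.0337). Cd8b1, the other chain of CD8, differed by 0.29 (95% confidence interval -0.02 to 0.61, adjusted p = 1 by limma), and its groups overlapped. Satb1, a chromatin organizer of T cells, differed by -0.35 (95% confidence interval -0.61 to -0.09, adjusted p = 0.80 by limma). Tox, needed for CD4 development, differed by -0.23 (-0.47 to 0.02), an interval that includes 0. In 3 of the 10, Cd8a, Satb1 and Tox, the groups did not overlap, beside 6.19% of all genes.

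Markers of some other cell types, but not of all, lay apart between the tissues. The labels describe isolation by flow sorting and by magnetic beads, and the purity of a sample is not given. Summed signals are given below as the log2 of the sum over a list. The 7 Treg markers summed to 14.04 to 14.14 in liver and 14.04 to 14.15 in spleen. Of all genes 6.19% were without overlap between the tissues, 3.11% with liver higher. All 7 dendritic cell markers were without overlap and higher in liver (9.23 to 9.85 against 8.69 to 8.99, median difference 0.94), although none passed the test. Natural killer cell markers summed to 9.38 to 10.34 in liver and 8.61 to 9.005 in spleen, with 3 of 5 without overlap and higher in liver. The others overlapped, 1 of them with a negative difference (-0.12). The 2 CD8 T cell markers summed to 9.41 to 9.47 and 8.65 to 9.30, and the 6 B and plasma cell markers to 9.52 to 9.87 and 9.39 to 9.59. Macrophage markers summed to 8.37 to 8.42 in liver and 8.46 to 8.84 in spleen. Of these 7, Spic, the factor of red pulp macrophages, passed the test at -0.97 (adjusted p = 0.042 by limma). It did not pass under the 3 other scalings (0.166 to 0.386) or without liver array 3 (0.0789) or spleen array 5 (0.522). Spic measured 4.48, 4.23 and 4.26 on liver arrays 2, 3 and 7, in the range of the background row averages (4.09 to 4.55). Of the 7 markers 2 were without overlap, Spic and Vcam1 (-0.53), and the others overlapped. The 6 hepatocyte markers summed to 8.13 to 8.26 and 7.97 to 8.38. Their median difference was 0.03, with 3 positive and 3 negative. Alb was the largest at 0.47 (adjusted p = 0.475 by limma), and only Alb was without overlap. Markers of liver endothelial and stellate cells, erythroid cells and neutrophils had median differences of -0.04, -0.01 and -0.09 with none past the test. The part of such cells in the Zbtb10 difference was not tested.

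Immediate early genes, which cells induce within minutes of stimulation or handling, were listed after the data were seen, because the spleen arrays were spread for Zbtb10. Of 10 such genes 9 were lower in liver by sign, as were 22401 of all 38854 genes. The median difference of the 10 was -0.25, and none passed the test. In 3 of the 10, Nr4a2, Nr4a3 and Dusp1, the groups did not overlap, beside 6.19% of all genes. Summed signals of the list were 12.43 to 12.51 in liver and 12.49 to 12.87 in spleen. Nr4a2 measured 8.97, 9.12 and 9.10 on liver arrays 2, 3 and 7 and 9.87, 9.82 and 9.30 on spleen arrays 4, 5 and 6, a difference of -0.60 without overlap. Nr4a3 measured 8.30, 8.45 and 8.27 on the liver arrays and 9.004, 9.02 and 8.48 on the spleen arrays, a difference of -0.50 without overlap. Both encode nuclear receptors that T cells induce on antigen receptor signalling, as does Nr4a1. Nr4a1 measured 9.33, 9.39 and 9.40 in liver and 9.996, 9.94 and 9.39 in spleen, and Fos 8.85, 8.85 and 8.97 in liver and 9.38, 9.33 and 8.86 in spleen. These 4 genes, the largest of the list, were named after their values were seen. In each of these 4 genes spleen arrays 4 and 5 were high and spleen array 6 was the lowest of the spleen arrays, inside the liver range for Nr4a1 and Fos and above it for Nr4a2 and Nr4a3. Spleen array 6 was the lowest spleen array in every gene of the list. In Zbtb10 it was also the lowest of them, at 8.53, and the highest liver array was at 7.82. In Zbtb21 spleen array 6 lay just above the liver arrays. Their part in the Zbtb10 difference was not tested.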

How the data were processed

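Per the submitters' processing notes, the authors summarised 6 Affymetrix arrays with RMA in Affymetrix Expression Console, and the deposited values are log2 signals per transcript cluster. The labels' protocols and the column headers name different mouse arrays, and the genome build and annotation release were not given in the sources used here. The deposited table of 72688 rows and the series' value table hold the same values. Control rows (186), rows without a symbol (32901) and rows with several symbols (87) were left out. The row with the highest mean was kept per symbol, giving 38854 genes. Arrays were grouped by the tissue in their labels.

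Liver minus spleen was fitted for all genes with limma 3.58.1 (lmFit, eBayes, R 4.3.3), without covariates, and p-values were adjusted by Benjamini-Hochberg over all genes at a threshold of 0.05. Intervals are 95%. The fit was also run on simulated data with independent noise drawn from limma's own model, which cannot test effects shared by an array. Depth does not apply to arrays; their number, 3 per tissue, limits the precision. Members and lists were chosen with earlier results of these data known. Named were Zbtb10, members of the role lists, members whose groups did not overlap, the 3 highest and 3 lowest by signal, and up to 4 genes with the largest difference in each other list, besides Foxp3, Cdkn1a, Sp1, Sp3 and Sp4, and Mir27a outside this rule. Other scalings, filters, spread models and each array left out were tried as alternatives. The immediate early list, the exact permutation test of Zbtb10 and its value against the other members were added after seeing the data. RefSeq windows and miRNAs (GRCm38.p6) were matched by symbol.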

Additional observations from a re-analysis of the deposited data

How the results depend on the processing

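Of 15 alternatives 6 leave the Zbtb10 estimate as it is by construction, and in the 9 others it was lower in liver. Its difference was -1.07 with array medians subtracted, -1.12 with quantile normalization and -1.12 with cyclic loess, none past the test, and -1.26 to -0.96 with single arrays left out. Under these 3 scalings 0 members and 0 of all genes passed limma's adjusted threshold, while 1448, 2391 and 2429 genes had an unadjusted p under 0.05. The count over all genes was 18 without the dimmer 50% of genes, 21 without genes under a mean of 5 and 23 with an intensity trend. With single arrays left out it was 0 to 33 and that of members 0 to 1. The median over members stayed between -0.03 and 0.06.

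Signs turned for differences near 0. With medians subtracted Zbtb1 was 0.0019, Zbtb17 0.0058, Zbtb24 0.018, Zbtb43 0.020, Foxp3 0.0011 and Sp3 0.019. With quantile normalization Zbtb18 was 0.0018 and Zbtb43 0.014, and with cyclic loess Zbtb43 was 0.0043. With single arrays left out the ranges were: Zbtb1 -0.058 to 0.033, Zbtb2 -0.11 to 0.013, Zbtb3 -0.11 to 0.27, Zbtb4 -0.087 to 0.023, Zbtb6 -0.026 to 0.14, Zbtb7a -0.0058 to 0.079, Zbtb7b -0.11 to 0.036, Zbtb7c -0.14 to 0.047, Zbtb8a -0.053 to 0.20, Zbtb8b -0.00035 to 0.075, Zbtb9 -0.12 to 0.067, Zbtb14 -0.12 to 0.051, Zbtb17 -0.045 to 0.034, Zbtb18 -0.060 to 0.0043, Zbtb22 -0.24 to 0.059, Zbtb24 -0.12 to 0.12, Zbtb34 -0.045 to 0.13, Zbtb40 -0.043 to 0.063, Zbtb41 -0.0063 to 0.12, Zbtb42 -0.12 to 0.16, Zbtb43 -0.10 to 0.082, Zbtb46 -0.11 to 0.034, Zbtb48 -0.093 to 0.13, Zbtb49 -0.037 to 0.11, Foxp3 -0.075 to 0.058, Sp1 -0.028 to 0.12, Sp3 -0.036 to 0.038, Sp4 -0.093 to 0.048, Mir27a -0.074 to 0.12 and Cdkn1a -0.14 to 0.19. The cause of these changes was not tested. The sign held in every alternative for 14 members, Zbtb10, Zbtb20, Zbtb21 and Zbtb32 among them.

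No paired analysis was possible because the labels do not link liver and spleen arrays to each other or to animals.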

Other observations

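Zbtb8os, which the symbol rule left out, measured 6.64 ± 0.26 in liver and 6.56 ± 0.08 in spleen, a difference of 0.08 (95% confidence interval -0.22 to 0.38). Zbtb8b has a second row of lower signal, at 5.96, 5.92 and 6.03 on liver arrays 2, 3 and 7 and at 5.85, 6.07 and 6.04 on spleen arrays 4, 5 and 6, which overlap.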
